A study of Mus musculus with 20 samples.

Results

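The cold response described here is that of DPP4- adipocyte progenitor cells, measured by RNA-seq in 10 of the 20 libraries of the study. The 10 libraries were chosen by their labels: 5 of DPP4- cells from mice kept at 22 °C (room temperature) and 5 of DPP4- cells from mice exposed to 6 °C for 24 h. All groups were male C57BL/6 mice, and all cells had been isolated by flow cytometry as PDGFRb+ cells of the inguinal white adipose depot, which lies under the skin of the groin. The other 10 libraries, 5 per temperature, held DPP4+ cells of the same gate and are used only for comparison. Neither genetic modification nor drug treatment is named. The labels do not say whether a library is 1 mouse or a pool, so the p-values measure the spread between these samples, and they do not say whether DPP4- and DPP4+ libraries with the same number share mice. The values are normalized reads per gene, that is, counts divided by 1 factor per library by the authors.

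Adipose tissue stores fat in adipocytes, and new adipocytes arise from PDGFR-expressing stromal progenitors that also lay down the depot's collagen matrix. Within these progenitors, cells carrying DPP4 (a cell surface peptidase) are described as an early, multipotent interstitial population, and DPP4- cells as a mixture that includes committed preadipocytes expressing Icam1, Pparg and basement membrane collagens. Cold activates sympathetic nerves in the depot, and progenitors and adipocytes both respond to it, the best known product being UCP1, the uncoupling protein of thermogenic adipocytes.

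The libraries held 10951513 to 13381017 reads at 22 °C and 8487790 to 18753821 at 6 °C. Dpp4 itself read 52.2 to 105 at 22 °C and 37.8 to 137 at 6 °C. These values alone do not check the DPP4- label, because the level in DPP4+ cells is not given here. The progenitor markers Pdgfra (8902 to 10583 at 22 °C and 9387 to 12265 at 6 °C) and Pdgfrb (3670 to 4487 and 3451 to 4826) were high in all 10 libraries. Library 2 at 6 °C stood apart because it carried blood cell transcripts. Its summed granulocyte and mast cell markers came to 2894 normalized reads, against 17.3 to 164 in the other 4 libraries at 6 °C and 25.7 to 440 at 22 °C. Lymphocyte markers summed to 830 there against 105 to 190 in the other cold libraries, and macrophage and dendritic cell markers to 1156 against 379 to 534. All 21 macrophage, 25 lymphocyte and 19 granulocyte and mast cell markers had at least 1 read somewhere, while the erythroid marker Hba-a1 was at 0 in all 10. The 11 Schwann cell markers summed to 2808 to 3265 at 22 °C and 2140 to 2770 at 6 °C, with no overlap, and 1 of the 9 tested, Pmp22, fell (0 without library 2), and their part in the results was not tested. Each main result below is therefore also given without library 2 at 6 °C.

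**Figure D1:**
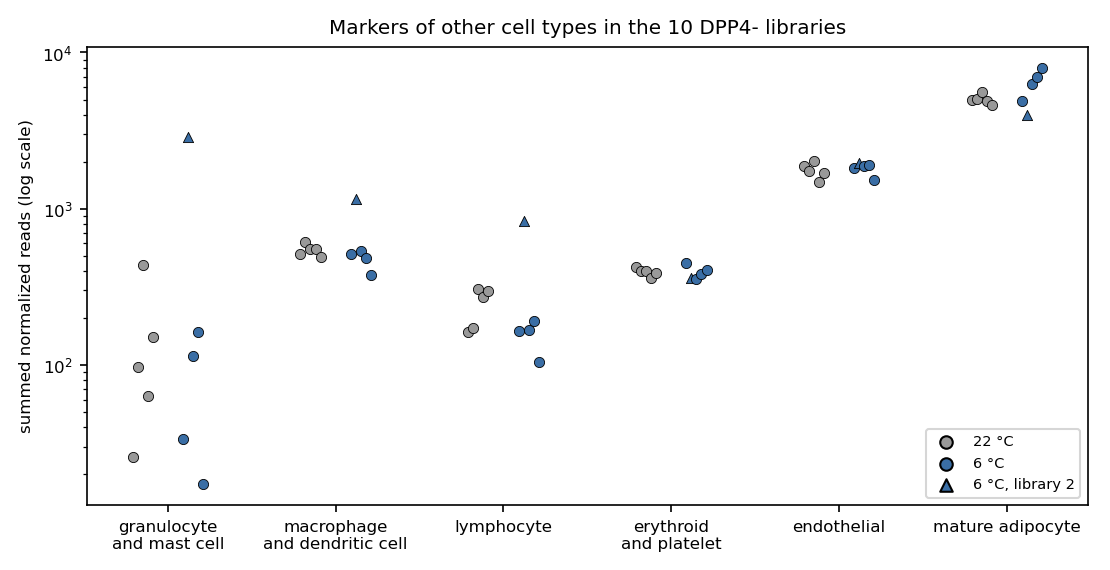
Summed normalized reads (log scale) of marker lists of other cell types in each of the 10 DPP4- libraries, grey for 22 °C, blue for 6 °C and a triangle for library 2 at 6 °C. That library stood above the others for granulocyte and mast cell, macrophage and lymphocyte markers, and within their range for erythroid and endothelial ones.

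Among the 12865 genes tested, those averaging 10 or more normalized reads over the 10 libraries, 103 were higher and 293 lower in the cold at a Benjamini-Hochberg adjusted p of at most 0.05 (limma), that is 0.801% and 2.28%, or 3.08% in all. The changes were small. Of the 103 higher genes 91 differed less than 2-fold, and of the 293 lower genes 272. The 2 groups of 5 libraries did not overlap for 81 of the higher and 230 of the lower genes, while over all genes tested 213 stood apart upward and 421 downward (1.66% and 3.27%, 4.93% in all). Without library 2 at 6 °C the test called 118 genes higher (0.92%) and 301 lower (2.35%), and 327 of the 396 calls were shared. The balance of directions rested on the scaling: when the totals of the libraries were set equal, which moved the median log2 difference of all genes from 0.00 to 0.10, 403 genes were higher and 141 lower. The number of calls also rested on single libraries. Without library 3 at 22 °C there were 63 higher and 174 lower genes, without library 5 at 22 °C 64 and 148, without library 4 at 22 °C 72 and 182, and without library 3 at 6 °C 66 and 174.

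The clearest group was extracellular matrix, which was lower in the cold. Among 26 interstitial collagens and elastic fibre genes tested, 14 fell and 0 rose, with a median log2 difference of -0.38 beside 0.00 for all genes and 23 of 26 below 0. The 14 were Fn1, Col3a1, Mfap4, Col5a2, Col16a1, Col6a2, Col1a2, Mfap5, Col6a3, Fbn1, Col5a1, Col12a1, Fbln1 and Col6a1. Without library 2 at 6 °C the count was again 14. It was 9 with totals set equal and 6 after quantile normalization, and it ranged from 7 (without library 4 or without library 5 at 22 °C) to 15 when 1 library was left out, below 10 also without library 2 at 22 °C (9) and library 3 at 6 °C (8). In bulk libraries, fewer cells of a type and less RNA per cell cannot be told apart.

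Col3a1 (GRCm38 chromosome 1, 45311538 to 45349706) encodes the chain of type III collagen and was the most abundant of them. Its normalized reads were 976810, 1042400, 842410, 964540 and 971880 at 22 °C and 510860, 758770, 673250, 617590 and 680840 at 6 °C. The groups did not overlap, and the mean was 1.48-fold lower in the cold (log2 difference -0.57, SE 0.104, limma adjusted p = 0.00558; 0.0034 without library 2). The call was lost after quantile normalization (adjusted p = 0.39), which gives genes of the same rank in every library the same value. Fn1 (chromosome 1, 71585473 to 71653280), fibronectin, the glycoprotein that links cells to collagen, read 51711, 45503, 44790, 54926 and 48321 at 22 °C. In the cold it read 25274, 30510, 22871, 32002 and 28446, so that every cold library lay below every library at 22 °C. The difference was 1.76-fold (log2 -0.82, SE 0.094, limma adjusted p = 0.000144; 0.00025 without library 2). Col1a2, a chain of type I collagen, fell 1.36-fold (limma adjusted p = 0.0188), a call that was lost without library 2, 4 or 5 at 22 °C (highest adjusted p 0.0574). Its partner chain Col1a1 averaged 571370 at 22 °C and 449200 at 6 °C with an adjusted p of 0.103, and 0.0462 without library 2.

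Because these transcripts are so abundant, their fall is visible in the composition of the libraries, where the scaling factor plays no part. The interstitial list took 15.6, 16.7, 14.4, 16.4 and 15.7% of the deposited total at 22 °C and 10.2, 13.6, 12.8, 12.1 and 13.1% at 6 °C. The groups were apart, at 15.8 ± 0.897% against 12.4 ± 1.31% (SD, n = 5, two-sided exact permutation p = 0.00794, the smallest that 5 against 5 can give, 0.0159 adjusted over 6 shares). Without library 2 the cold mean was 12.1 ± 1.30% (n = 4, exact p = 0.0159, again the smallest possible). Col1a1, Col1a2 and Col3a1 alone, also among the 6 shares, went from 11.5 ± 0.840 to 8.90 ± 1.17% (SD, n = 5). Col1a1 and Col1a2 were named after their values were seen, so this share only describes the fall and is no separate test of it.

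**Figure D2:**
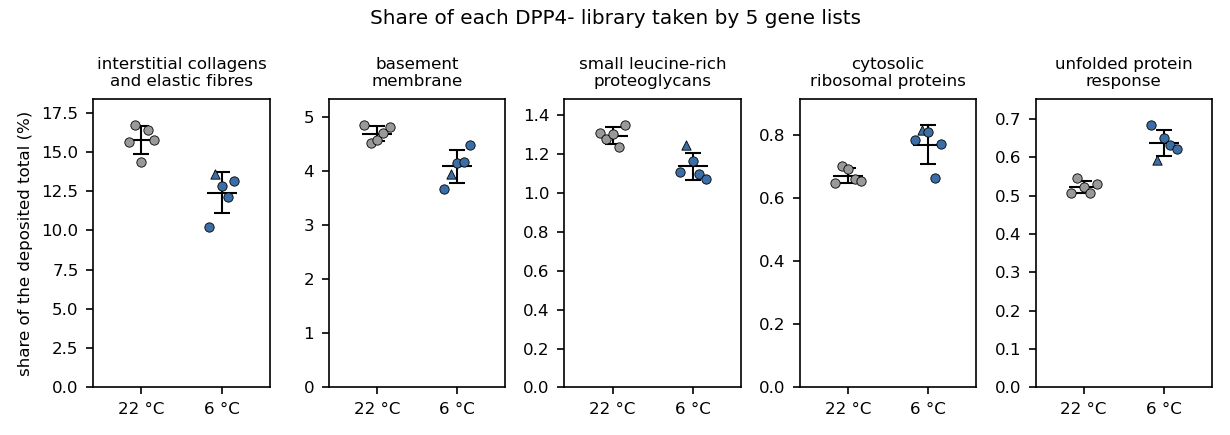
Percent of the deposited total taken by 5 gene lists in each DPP4- library (points; bars are the mean ± SD of 5; the triangle is library 2 at 6 °C). The 3 matrix lists took less in the cold, the ribosomal protein and unfolded protein response lists more, and the groups of the interstitial, basement membrane and unfolded protein response lists do not overlap.

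Basement membranes are thin sheets of laminin, type IV collagen and nidogen around adipocytes and vessels. Of 26 such genes 9 fell and 0 rose (median log2 difference -0.27), namely Lama2, Col4a5, Smoc2, Col4a4, Col4a3, Sparc, Nid2, Nid1 and Lamb2, and the count was again 9 without library 2 at 6 °C. It ranged from 6 (without library 3 at 6 °C) to 11 and was 7 with totals set equal. Lama2 (chromosome 10, 26981285 to 27617191), the laminin alpha 2 chain, read 40307, 33810, 36117, 37986 and 39156 at 22 °C and 26873, 27629, 26206, 29118 and 28740 at 6 °C. These ranges did not overlap, with a 1.35-fold fall (log2 -0.43, SE 0.0716, limma adjusted p = 0.00301). The major chain Col4a1, a preadipocyte marker, averaged 172400 ± 18898 and 144840 ± 11951 (SD, n = 5) and did not pass the test (adjusted p = 0.153). The 17 markers of committed preadipocytes, Col4a1 and Lama2 among them, summed to 454960 to 515010 at 22 °C and 384400 to 457640 at 6 °C, and 1 of the 17, Lama2, fell. The basement membrane list's share of the total was 4.69 ± 0.143% at 22 °C and 4.08 ± 0.298% in the cold (n = 5, exact p = 0.00794).

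Small leucine-rich proteoglycans decorate collagen fibrils and set their diameter. In this family 6 of 11 tested genes fell and 0 rose, also without library 2 at 6 °C, with a median log2 difference of -0.36. The 6 were Aspn, Ogn, Bgn, Ecm2, Omd and Podn. With totals set equal 3 fell, and when 1 library was left out 2 (without library 5 at 22 °C) to 6. Aspn (asporin, chromosome 13, 49544443 to 49567565) had the largest fall among the genes named for the size of their change. It read 4174, 5023, 4396, 3807 and 4169 at 22 °C and 1504, 1967, 1662, 2067 and 2192 at 6 °C, with a wide gap between the groups. The means differed 2.30-fold (log2 -1.21, SE 0.0995, limma adjusted p = 6.22e-06; 3.77e-05 without library 2). Its chromosomal neighbour Ogn (osteoglycin, chromosome 13, 49608015 to 49624501) went from 12153 ± 749 to 7270 ± 906 (SD, n = 5, limma adjusted p = 0.00013). Lum and the abundant Dcn did not pass the test (adjusted p = 0.0653 and 0.153). Among 21 collagen modifying enzymes 5 fell and 0 rose (4 without library 2, 3 without library 1 at 6 °C or library 5 at 22 °C): P4ha2 and P3h3, which hydroxylate prolines, Lox, which cross-links fibrils, and Crtap and Pcolce, which assist folding and propeptide cleavage. With totals set equal 2 fell and 1 rose.

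The other genes named for the size of their fall had diverse roles. Sfrp2 (chromosome 3, 83765750 to 83774314), a secreted inhibitor of Wnt ligands, read 13350, 8911, 8365, 9692 and 8676 and then 3468, 6198, 5196, 4632 and 3716. It fell 2.11-fold (limma adjusted p = 0.0103; 0.00272 without library 2), and library 1 at 22 °C was far above the rest. Klf12, a transcriptional repressor, fell from 206 ± 15.6 to 98.4 ± 27.3 (limma adjusted p = 0.000483), and Alpk3, an atypical kinase, from 168 ± 23.2 to 77.8 ± 10.7 (SD, n = 5, limma adjusted p = 0.000194). C7, a terminal complement component, fell 1.86-fold (adjusted p = 0.0133). The rule also named Lrrn1, Plcxd3, Sprn, Lrrc8b (a subunit of volume-regulated anion channels), Klhl29, Fgf14, Mfap4 (a microfibril protein, counted above with the elastic fibre genes) and Col6a6, which fell 1.86- to 2.16-fold. Of these the calls of Col6a6 (without library 1 or 4 at 22 °C, adjusted p up to 0.052) and Plcxd3 (without library 3 at 22 °C, 0.0569) were lost when 1 library was left out.

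**Figure D3:**
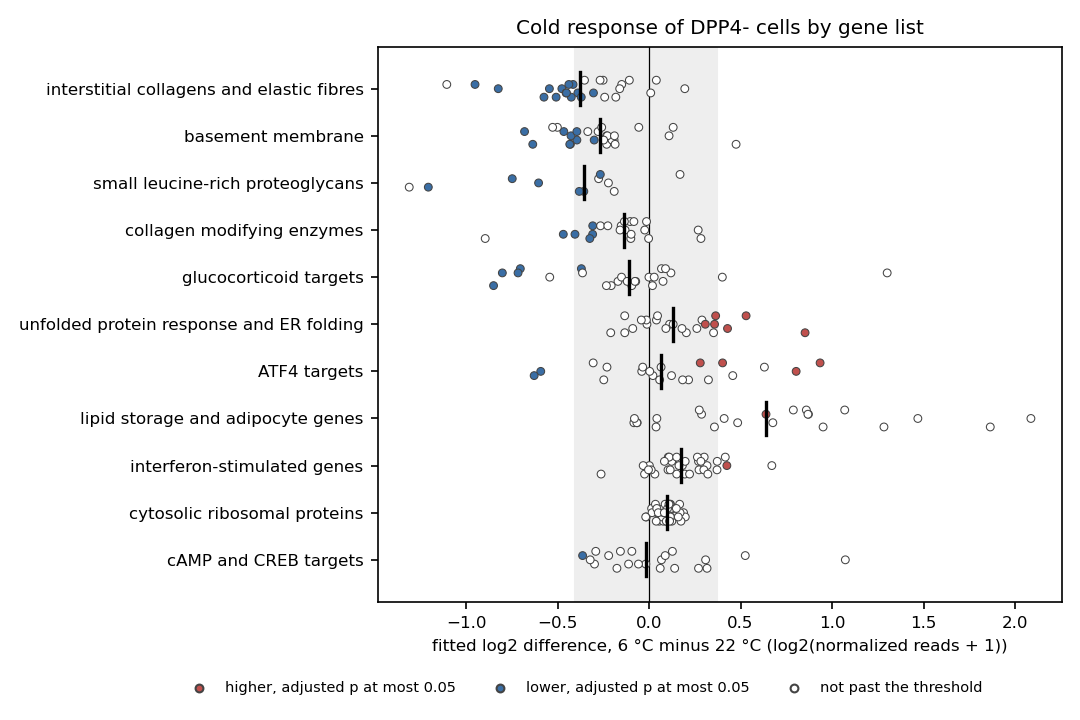
Fitted log2 difference (6 °C minus 22 °C) of every tested member of 11 gene lists in DPP4- cells; filled points passed the test, black bars are list medians and the grey band spans the 5th to 95th percentile of all genes tested, -0.41 to 0.37. The matrix lists lie to the left, 6 unfolded protein response genes are filled on the right, and the lipid storage genes spread far to the right with 1 filled point.

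Some genes of protein folding in the endoplasmic reticulum (ER) were higher in the cold. The unfolded protein response raises ER chaperones and degradation factors through the transcription factors ATF6 and XBP1, which act at the ER stress response element, ERSE. Of 23 such genes tested 6 rose and 0 fell (7 and 0 without library 2 at 6 °C), and 6 or 7 rose whichever library was left out. The log2 difference was above 0 for 16 and below 0 for 7, with a median of 0.13. The 6 were Creld2, Hyou1, Syvn1, Sdf2l1, Manf and Calr. The RefSeq promoter table (GRCm38.p6, the bases around each gene's start) held 4 of the 6, and both strands were searched for ERSE as CCAAT, 9 bases of any kind and CCACG. Calr, Creld2 and Syvn1 had a match and Sdf2l1 had none. Among the 16 members with a promoter entry that did not pass the test 5 had one, as did 0.119% of all 32851 promoters, and a match describes these letters only. The motifs ERSE-II and UPRE were also searched for, and each matched 0 of the 4 promoters. Among the 16 they matched 2 and 1, so that 8 of the 16 and 3 of the 4 had a match to any of the 3 motifs. The 3 promoters are shown because they have an ERSE match and belong to ER genes that rose. They are Calr, chr8:84846882-84847181, minus strand; Creld2, chr15:88819396-88819695, plus strand; and Syvn1, chr19:6046326-6046625, plus strand. Capitals mark the fixed letters of the match, which starts 162, 126 and 44 bases before the gene's start. In Calr and Creld2 it lies on the opposite strand and therefore reads CGTGG before ATTGG.
Calr: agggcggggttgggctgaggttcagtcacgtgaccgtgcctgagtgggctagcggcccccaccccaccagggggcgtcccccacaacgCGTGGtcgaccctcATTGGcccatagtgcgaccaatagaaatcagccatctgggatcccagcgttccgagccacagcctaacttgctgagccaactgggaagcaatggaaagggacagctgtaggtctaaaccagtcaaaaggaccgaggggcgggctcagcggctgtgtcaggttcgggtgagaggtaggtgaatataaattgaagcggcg
Creld2: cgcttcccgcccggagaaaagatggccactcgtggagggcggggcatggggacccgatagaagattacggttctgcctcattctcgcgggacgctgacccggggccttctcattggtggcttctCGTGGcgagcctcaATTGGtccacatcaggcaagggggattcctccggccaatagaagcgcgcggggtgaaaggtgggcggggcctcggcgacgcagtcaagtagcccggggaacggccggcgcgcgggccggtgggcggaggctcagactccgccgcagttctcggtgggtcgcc
Syvn1: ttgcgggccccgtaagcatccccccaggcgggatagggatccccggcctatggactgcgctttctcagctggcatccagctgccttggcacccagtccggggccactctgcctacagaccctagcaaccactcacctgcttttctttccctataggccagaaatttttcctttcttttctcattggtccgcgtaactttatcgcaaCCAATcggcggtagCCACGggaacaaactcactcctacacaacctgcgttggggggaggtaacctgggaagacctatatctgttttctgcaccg

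Hyou1 (chromosome 9, 44379490 to 44392369), an HSP70-like ER chaperone, read 1330, 1330, 1310, 1328 and 1427 at 22 °C and 2104, 1534, 1867, 1828 and 1765 at 6 °C. The cold libraries were all above, by 1.35-fold on average (log2 0.43, SE 0.0743, limma adjusted p = 0.0046; 0.00169 without library 2). Creld2, a secreted ER stress protein, read 401, 408, 322, 329 and 386 and then 602, 470, 489, 536 and 569 (1.44-fold, limma adjusted p = 0.0041). Syvn1, the ubiquitin ligase of ER-associated degradation, rose 1.28-fold (adjusted p = 0.00492), Calr (calreticulin) 1.28-fold (0.0122), Manf 1.24-fold (0.0107) and Sdf2l1, a chaperone cofactor, 1.85-fold (0.00735). Hspa5, which encodes the major chaperone BiP, read 23425 to 26748 at 22 °C and 25398 to 33633 at 6 °C and missed the threshold (adjusted p = 0.0684; 0.0815 without library 2), with library 5 the lowest of the cold ones. It passed without that library (0.0176) and in 7 of the 12 settings that kept all libraries, among them DESeq2 (0.00867) and totals set equal (0.0138). The list took 0.522 ± 0.0163% of the deposited total at 22 °C and 0.636 ± 0.0337% at 6 °C (SD, n = 5, exact permutation p = 0.00794). With totals set equal 11 of the 23 genes rose, but there the median log2 difference of all genes was itself 0.10. The share test does not separate that part, because a share also rises when other genes take less of the total.

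Targets of ATF4, the transcription factor of amino acid shortage and ER stress, moved in both directions. Of 21 tested, 4 rose and 2 fell, the same numbers without library 2 at 6 °C. Gdf15, a stress-induced hormone, read 91.8, 122, 134, 123 and 104 at 22 °C and 351, 230, 198, 181 and 171 at 6 °C, with no overlap (1.97-fold, limma adjusted p = 0.00912). Psph, the last enzyme of serine synthesis, rose 1.75-fold (adjusted p = 0.0107), with library 1 at 22 °C the lowest by far at 41.9. Asns, asparagine synthetase, rose 1.32-fold (0.0127), and Slc3a2, a subunit of amino acid exchangers, 1.21-fold (0.0353, lost on leaving out any library but 2 or 4 at 6 °C or 5 at 22 °C, highest adjusted p 0.103). The lipoprotein receptor gene Vldlr fell 1.54-fold (0.000483) and Pycr1, of proline synthesis, by 0.59 on the log2 scale (0.022, lost without library 1 at 6 °C or library 2 or 5 at 22 °C, highest 0.0684).

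Glucocorticoid targets included several falls with small adjusted p-values. Fkbp5 (chromosome 17, 28398753 to 28486149), a cochaperone that is induced by glucocorticoid receptor and restrains it, read 2142, 2097, 2270, 1853 and 2214 at 22 °C. At 6 °C it read 1303, 1137, 1263, 1220 and 1134, well below, for a 1.75-fold fall (log2 -0.80, SE 0.0691, limma adjusted p = 5.87e-06; 3.77e-05 without library 2). Tsc22d3, which encodes GILZ, went from 997 ± 123 to 609 ± 94.2 (SD, n = 5, limma adjusted p = 0.0022). Sult1a1, a sulfotransferase, fell 1.63-fold (0.00558). Of the 24 genes of this list 5 fell and 0 rose (median log2 difference -0.11), and 3 fell without library 2 at 6 °C, where Fam107a (0.0562) and the p53 target Cdkn1a (0.0508) did not pass. Fam107a passed only with all 10 libraries or without library 4 at 6 °C or 2 at 22 °C, and Cdkn1a only with all 10 or without library 1 at 6 °C or 4 at 22 °C. The count was also 3 without library 3 or 5 at 6 °C and without library 1, 3 or 5 at 22 °C. With totals set equal 4 of the list fell and 0 rose, 12 were above 0 and 12 below, and the median log2 difference was -0.01. The receptor gene Nr3c1 (adjusted p = 0.668), Per1 (0.769) and Zbtb16 (0.0655) did not pass.

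Among genes with a group mean of at least 50 normalized reads, the largest rises were of genes at low to moderate levels. Below that level the mesothelial marker Lrrn4 rose further, from 8.42 ± 3.92 to 36.9 ± 18.3 (SD, n = 5, log2 difference 1.95, limma adjusted p = 0.00505; 0.012 without library 2), the largest log2 difference of the 103 higher genes. Phospho1, a phosphatase of phosphocholine and phosphoethanolamine that brown adipocytes also express, read 17.6, 24.0, 12.6, 27.6 and 11.6 at 22 °C and 42.9, 61.4, 59.4, 50.8 and 50.2 at 6 °C. It rose 2.83-fold with no overlap (log2 1.52, SE 0.239, limma adjusted p = 0.00209; 0.00582 without library 2). Car4, a membrane-bound carbonic anhydrase, rose 2.26-fold (adjusted p = 0.00155) and the keratin gene Krt36 2.22-fold (0.00098). Cited1, a transcriptional coregulator described as a marker of beige adipocytes, read 21.6, 30.0, 32.8, 36.8 and 48.9 and then 71.1, 90, 83.7, 58.4 and 51.0. Its groups were apart by a small margin (2.08-fold, limma adjusted p = 0.0112). Cyp4b1, a fatty acid hydroxylase, rose 1.79-fold (0.000999), Anapc15, a subunit of the anaphase-promoting complex, 1.88-fold (0.00678) and Fxyd6, a regulator of the sodium pump, 1.77-fold (0.00912). Arxes2, Wdr86 and Tubg1 (gamma-tubulin) rose 1.80- to 2.10-fold, the call of Arxes2 being lost without library 3 at 6 °C (adjusted p = 0.0527) and that of Tubg1 without library 5 at 6 °C or library 3 at 22 °C (up to 0.0591).

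**Figure D4:**
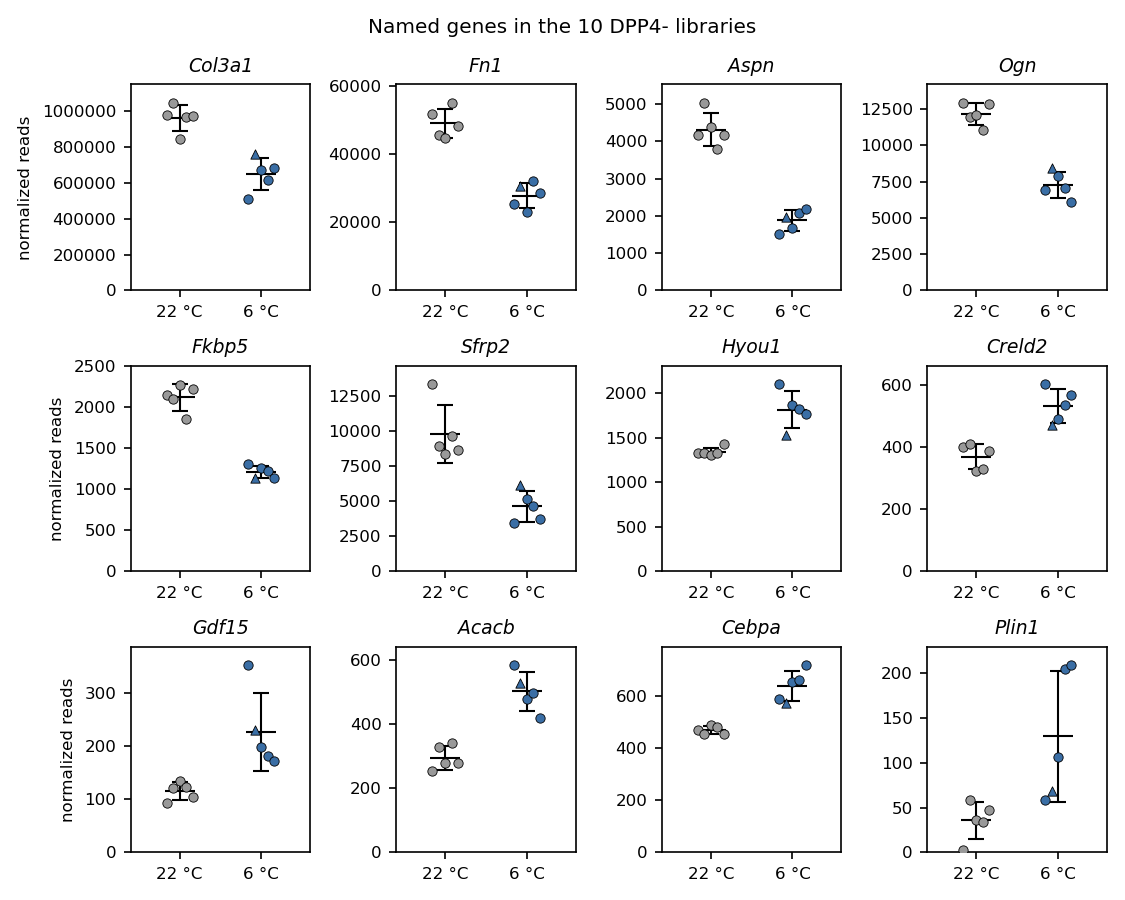
Normalized reads of 12 genes in each of the 10 DPP4- libraries (points, with mean ± SD of 5; the triangle is library 2 at 6 °C). Col3a1, Fn1, Aspn, Ogn, Fkbp5 and Sfrp2 lie lower in the cold and Hyou1, Creld2, Gdf15, Acacb and Cebpa higher, without overlap, while Plin1 is apart with a wide spread and did not pass the test.

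Single regulators of fat synthesis and adipocyte differentiation changed. Of 21 adipogenic regulators tested 1 rose, Cebpa, and 1 fell, Sox9, also without library 2 at 6 °C, with a median log2 difference of 0.08. Acacb (chromosome 5, 114146321 to 114250761), the mitochondrial acetyl-CoA carboxylase whose product restrains fatty acid oxidation, read 254, 330, 278, 341 and 278 at 22 °C and 585, 530, 479, 499 and 420 at 6 °C. All cold libraries were higher (1.70-fold, log2 0.76, SE 0.0998, limma adjusted p = 0.000492; 0.00214 without library 2). Cebpa (chromosome 7, 35119293 to 35121928), a master transcription factor of adipocyte differentiation, read 470, 455, 491, 484 and 454 and then 589, 575, 655, 661 and 719. It rose 1.36-fold, again without overlap (log2 0.44, SE 0.0731, limma adjusted p = 0.00332; 0.00282 without library 2). Its partner Pparg stayed within its spread (294 ± 19.3 and 313 ± 48.1, SD, n = 5, adjusted p = 0.764), and Sox9, which opposes differentiation, fell 1.32-fold (0.0101; not past the threshold with totals set equal). Mlxipl, the carbohydrate-responsive factor ChREBP, rose 1.96-fold (0.0251), a call lost without any of libraries 1, 3 and 5 at 6 °C and 3 and 5 at 22 °C (up to 0.0766). Of 18 fatty acid synthesis genes these 2, Acacb and Mlxipl, rose and 0 fell, and Fasn did not pass (0.937).

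Lipid storage and adipocyte genes had positive differences that mostly did not pass the test. Of 23 tested, 19 had a log2 difference above 0 with a median of 0.64, yet only Dgat2, the last enzyme of triglyceride synthesis, rose (1.58-fold, limma adjusted p = 0.0288), and that call was lost on leaving out any library but 1 or 2 at 6 °C or 2 at 22 °C (up to 0.0891). Without library 1 at 6 °C 3 of the list rose, and with totals set equal 4. Plin1, the lipid droplet coat protein of mature adipocytes, is an example, which read 2.70, 58.5, 36.5, 33.8 and 47.6 at 22 °C and 59.0, 68.2, 107, 205 and 209 at 6 °C. The groups were apart by less than 1 normalized read, the adjusted p was 0.238 (0.0423 to 0.396 under the alternatives), and library 1 at 22 °C and libraries 4 and 5 at 6 °C were the extremes. Fabp4, the fatty acid carrier, was likewise apart (5138 ± 1474 and 8755 ± 2250.2, SD, n = 5) with an adjusted p of 0.155. Among 10 mature adipocyte markers Trarg1, a regulator of glucose transporter traffic, rose 1.63-fold (0.0216; 0.0256 without library 2 and lost without library 4 at 6 °C or library 5 at 22 °C, up to 0.0536), 0 fell, and the median log2 difference was 0.91. The summed level of the whole marker list was 4643 to 5627 at 22 °C and 3974 to 7977 at 6 °C, most of it Fasn, and its part in the rises of lipid genes was not tested.

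Thermogenic transcripts were scarce. Ucp1 was under the level for testing: it had 1 read in all 5 libraries at 22 °C together (0.252 ± 0.563 normalized reads) and 47 reads at 6 °C (10.1 ± 7.37, SD, n = 5, range 5.36 to 23.04). Each cold library held more than any library at 22 °C, and the ratio of the pooled levels was 43.0, with an exact 95% interval of 7.35 to 1734 for counting error only (two-sided exact permutation p = 0.00794; 0.0159 without library 2). In DPP4+ cells Ucp1 went from 0.822 ± 0.581 to 59.8 ± 13.6 (n = 5). Ppargc1b, a coactivator of mitochondrial genes, read 9.45, 21.0, 21.4, 10.7 and 10.3 at 22 °C and 36.2, 34.1, 37.8, 26.4 and 48.6 at 6 °C and rose 2.51-fold (limma adjusted p = 0.0115; 0.0192 without library 2). Cox8b, a respiratory subunit of muscle and brown fat, rose 1.67-fold (0.0279) but not without library 2 at 6 °C (0.055), and it passed again only when library 4 of either temperature was left out. Dio2, the deiodinase that activates thyroid hormone, was 42.8 ± 23.1 and 47.3 ± 27.6 (SD, n = 5, adjusted p = 0.925). The receptor genes Adrb1 and Adrb3 were near the limit of detection: Adrb1 had 22 and 33 reads in all and Adrb3 19 and 35, both under the level for testing.

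Secreted signals changed in small numbers. Of 19 angiogenic factors 2 rose and 3 fell (3 and 5 without library 2 at 6 °C, 3 and 6 by DESeq2, and 3 and 2 with totals set equal). Vegfa, the main endothelial growth factor, read 2978, 3456, 3397, 3410 and 3225 at 22 °C and 5029, 4201, 4424, 4463 and 3492 at 6 °C, a rise of 1.31-fold with no overlap (limma adjusted p = 0.0167; 0.0254 without library 2). Angptl2 rose 1.32-fold (0.0217, lost without library 3 at 6 °C or library 5 at 22 °C, up to 0.07), while Angptl1 fell 1.54-fold (0.00209), Nrp1, a coreceptor for Vegfa, 1.29-fold (0.0103) and Angpt1, the ligand of Tek, 1.32-fold (0.016, lost without library 3 at 22 °C, 0.0532). Of 22 genes of the BMP pathway, which steers progenitors to fat, 3 fell and 0 rose: the antagonist Chrd (1.43-fold, 0.00956), the ligand Gdf10 (1.36-fold, 0.0101) and Bmp2 (log2 -0.48, 0.0466, lost on leaving out any library but 2 of either temperature, up to 0.11). The BMP counts were 4 lower without library 2 of either temperature, 2 lower without library 1, 3 or 5 at 6 °C or library 3 or 5 at 22 °C, 2 lower and 1 higher with totals set equal, and 7 lower and 1 higher by DESeq2. Among 22 Wnt genes Sfrp2 and Sfrp1 (1.52-fold, 0.00912) fell and 0 rose. The growth factor Fgf10 rose 1.39-fold (0.0274, lost without library 1, 3, 4 or 5 at 6 °C or library 3 or 5 at 22 °C, up to 0.0664).

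Of 15 chemokines tested 2 rose and 0 fell, but 11 had a log2 difference below 0, with a median of -0.18. The 2 were Ccl11 and Ccl8, which rose 1.29- and 1.38-fold (limma adjusted p = 0.0314 and 0.0337). The call of Ccl11 was lost without library 2 at 6 °C (0.0689), which carried the blood cell transcripts. It was lost also without library 1, 3 or 4 at 6 °C or 1, 2, 3 or 4 at 22 °C (up to 0.0907). The call of Ccl8 was lost without library 1 at 6 °C or library 1, 3, 4 or 5 at 22 °C (up to 0.0925). Ccl2, the monocyte chemokine, was 10291 ± 1362 and 9919 ± 2207 (SD, n = 5, adjusted p = 0.844), and the alarmin Il33 1962 ± 478 and 2118 ± 679 (0.905). Of 34 interferon-stimulated genes 30 had a log2 difference above 0 with a median of 0.18, but only Mx2 passed (1.33-fold, 0.0195, lost without library 3 or 5 at 22 °C, up to 0.0619), with 4 calls without library 2 at 22 °C and 5 with totals set equal. Of 19 genes of the hypoxia response 1 rose, Vegfa, and 2 fell, Ndrg1 (1.61-fold, limma adjusted p = 0.00155) and P4ha2. The numbers were the same without library 2 at 6 °C, and the median log2 difference was -0.10.

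Several programmes had no member past the threshold by limma with all 10 libraries and the deposited scaling: 33 cell cycle genes, 31 of ribosome biogenesis, 27 immediate early and dissociation genes, 18 clock genes, 43 respiratory chain subunits and 19 targets of YAP and TEAD. At an unadjusted p under 0.05 the same lists held 4, 3, 2, 2, 3 and 1 genes, and after adjustment edgeR called 1 gene of ribosome biogenesis and DESeq2 1 of ribosome biogenesis and 1 of the respiratory chain. By limma 1 gene of ribosome biogenesis was higher without library 2 at 6 °C and 2 with totals set equal, 1 of the respiratory chain without library 4 at 6 °C and 2 with totals set equal, and 1 clock gene was lower without library 2 at 22 °C. A p that misses the threshold does not show that they did not change. The 38 cytosolic ribosomal protein genes are an example, with 36 above 0 and a median log2 difference of 0.10. Their share of the deposited total was 0.673 ± 0.0242% at 22 °C and 0.771 ± 0.0623% at 6 °C (SD, n = 5, exact permutation p = 0.0238, and 0.0476 without library 2). A share also rises when other genes take less of the total, as the interstitial list did. With totals set equal the median log2 difference of all genes was itself 0.10, and the share test does not separate that part. Of 21 targets of cAMP and CREB, the pathway downstream of adrenergic receptors, 1 fell (Dclk1, 1.28-fold, limma adjusted p = 0.0268; 0.059 without library 2 at 6 °C, and lost also without library 3 at 6 °C or any of libraries 1 to 4 at 22 °C, up to 0.0819) and 0 rose. The surface markers Icam1 (17934 ± 2269.7 and 15613 ± 1380.5, SD, n = 5, adjusted p = 0.278), F3 (2712 ± 305 and 2834 ± 402, 0.812), Dpp4 (67.9 ± 21.6 and 61.3 ± 42.4, 0.72), Pdgfra (0.585) and Pdgfrb (0.98) did not pass. Cd34, a surface sialomucin of progenitors, read 10983, 9874, 9800, 9151 and 8541 at 22 °C and 7915, 7251, 6233, 7228 and 8602 at 6 °C. It fell 1.30-fold (limma adjusted p = 0.022; 0.0417 without library 2), although the groups overlapped, and the call was lost without library 3 at 6 °C or library 2 or 3 at 22 °C (up to 0.07) and with totals set equal. With the collagen and microfibril genes Col3a1 and Mfap5 it made up the 3 falls among 14 general fibroblast and progenitor markers, of which 0 rose and 12 were below 0 (median log2 difference -0.22). The count of falls was 4 without library 2 at 6 °C, 7 by DESeq2, 2 with totals set equal and 1 after quantile normalization or without library 3 at 6 °C. These markers summed to 1528100 to 1858600 at 22 °C and 1047300 to 1506500 at 6 °C, without overlap. The collagen genes Col3a1 and Col1a1 made up most of that sum, so it largely repeats the collagen result and does not describe the other markers. Of 12 markers of CD142+ regulatory progenitors (F3 encodes CD142) 3 fell and 0 rose (4 and 0 without library 2 at 6 °C), namely Gdf10, Bgn and Ltbp1, a binding protein of latent TGF-beta. The call of Ltbp1 (1.24-fold, 0.0368) was lost on leaving out any library but 2 of either temperature (up to 0.0891), and without library 5 at 22 °C 1 gene of the list fell.

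The response differed from that of DPP4+ cells, in which 3475 of 12725 genes were higher (27.3%) and 3391 lower (26.6%) by the same test. Of the 97 genes higher in cold DPP4- cells that were tested in DPP4+ cells, 39 were higher there too, 26 were lower and 32 did not pass. Of the 281 lower genes 117 were lower there, 39 were higher and 125 did not pass. The difference between the 2 cold effects was tested in 1 model of all 20 libraries, and 4329 of 13057 genes passed (33.2%), 2137 above 0 (16.4%, a higher value for DPP4- cells) and 2192 below 0 (16.8%). Setting the totals equal moved the median difference of all genes from -0.01 to 0.13 and gave 3060 above and 1128 below 0.

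The largest differences above 0 among genes that changed in DPP4- cells included opposite changes. Wdr86 rose by 1.03 on the log2 scale in DPP4- cells and was -4.30 in DPP4+ cells (difference 5.32, SE 0.29, limma adjusted p = 2.12e-12). Lgals12, an adipocyte galectin of lipid droplets, rose by 1.45 and was -2.77 (difference 4.22, adjusted p = 9.52e-08), although its rise in DPP4- cells, from 8.62 ± 4.53 to 24.7 ± 9.71 (SD, n = 5), was lost on leaving out any library but 1 or 2 at 6 °C or 2 at 22 °C (up to 0.109). Ppargc1b (1.33 and -1.22), Arxes2 (1.03 and -1.49) and the parathyroid hormone receptor gene Pth1r (0.63 and -1.84) also had opposite signs, with adjusted p of 0.000118, 1.26e-06 and 1.49e-09 for the difference. Pth1r itself was lost in DPP4- cells without library 1 or 3 at 6 °C or library 1, 3, 4 or 5 at 22 °C (up to 0.0715). The vasopressin receptor gene Avpr1a was lower in both (-0.60 and -3.35, difference 2.74, adjusted p = 3.35e-12), and its call in DPP4- cells was lost without libraries 3 or 5 of either temperature (up to 0.0609).

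Below 0, all 6 named genes were lower in cold DPP4- cells and had a positive log2 difference in DPP4+ cells. Iqgap2, a scaffold of the cytoskeleton, read 338, 219, 251, 238 and 239 at 22 °C and 138, 154, 127, 171 and 160 at 6 °C in DPP4- cells, with no overlap (log2 -0.76, limma adjusted p = 0.00209), against 2.69 in DPP4+ cells (difference -3.45, adjusted p = 2.12e-12). Vcan, the matrix proteoglycan versican, fell by 0.56 in DPP4- cells and was 1.76 in DPP4+ cells (difference -2.31, adjusted p = 4e-10). Shisa6 (-0.68 and 2.69), Adamtsl2, a microfibril-binding protein (-0.89 and 2.48; call in DPP4- cells lost without library 5 at 22 °C, 0.0594), Akap2, an anchor of protein kinase A (-0.54 and 1.53), and Arfgef3 (-1.37 and 0.60) behaved likewise, with differences of -3.37, -3.37, -2.08 and -1.98. Without library 2 at 6 °C all 12 of these differences passed again.

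**Figure D5:**
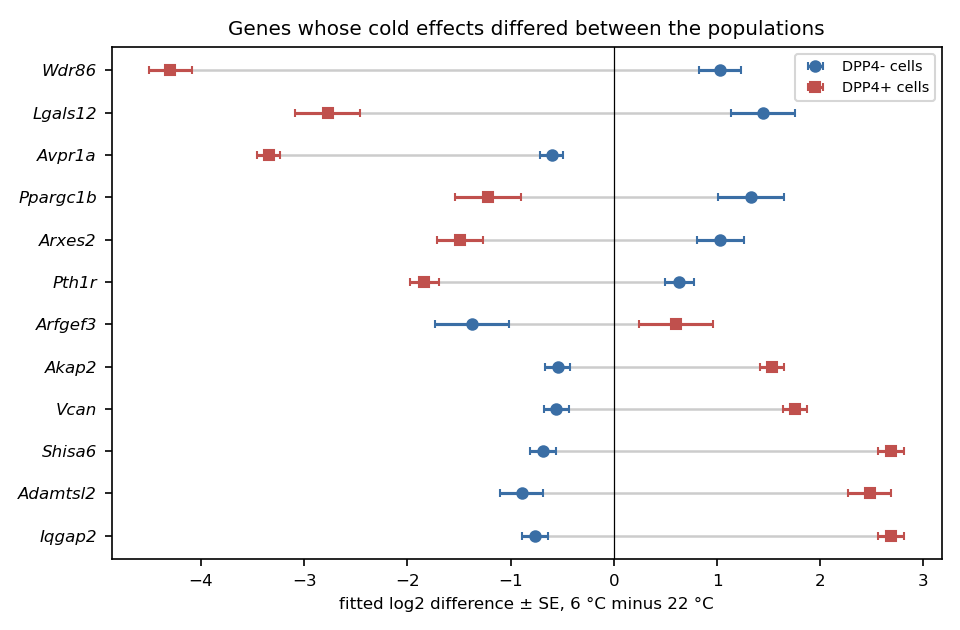
Fitted log2 difference between 6 °C and 22 °C, with SE from the model of 20 libraries, in DPP4- cells (blue circles) and DPP4+ cells (red squares) for the 12 named genes. For 11 of them the 2 populations lie on opposite sides of 0, and for Avpr1a both lie below it.

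Some of the gene groups described above had like medians in the 2 populations and others had not. Lipid storage and adipocyte genes had a median log2 difference of 0.64 in DPP4- and -0.30 in DPP4+ cells, where 5 rose and 13 fell, and the difference passed above 0 for 13 of 23 and below 0 for 2. Acacb (difference 2.10, SE 0.18, limma adjusted p = 4.79e-09) and Cebpa (1.87, SE 0.11, 1.46e-11) rose in DPP4- and fell in DPP4+ cells. For ER folding the medians had the same direction: 21 of 23 genes rose in DPP4+ cells, with a median of 0.41 against 0.13. The difference passed below 0 for 14. For Hyou1 it was -0.70 (SE 0.10, adjusted p = 1.25e-05). The cAMP and CREB targets had a median of 0.59 in DPP4+ cells, where 11 rose and 2 fell, against -0.02 (0.08 with totals set equal), and the difference passed below 0 for 12 of 20. ATF4 targets had 3 higher and 11 lower in DPP4+ cells, with the difference above 0 for 11 of 21. The interstitial collagens were nearer each other, with medians of -0.38 and -0.20, 9 lower in DPP4+ cells, and a difference that passed for 4 of 26 genes, 3 below 0 and 1 above. Glucocorticoid targets had medians of -0.11 and -0.14, with a difference past the threshold for 5 of 24, and the cytosolic ribosomal protein genes 0.10 and 0.15, with 0 of 38. Those shares are to be read against the 16.4 and 16.8% of all genes, or 33.2% in either direction. Fkbp5 was lower in both populations (-0.80 and -0.61), with no difference past the threshold (-0.19, SE 0.16, adjusted p = 0.377).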

How the data were processed

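RNA-seq libraries of DPP4- and DPP4+ progenitors were deposited as 1 table of 27179 genes. The deposited values are a signal of normalized counts: per the submitters' processing notes the tools include DESeq2 1.6.3, featureCounts 1.4.6, the aligner HISAT2 2.0.1 and the trimmer Trim Galore 0.4.1, and the builds named are GRCm38 and mm10. Annotation and strand setting are not given in the sources used here, so overlapping or antisense genes may share reads. Dividing by each library's step gave whole reads for 100% of values (tolerance 0.1 reads), and these gave the depths.

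log2(value + 1) of genes with a mean of at least 10 was fitted by limma 3.58.1 (R 4.3.3) with trend and robust moderation, on the 10 DPP4- libraries alone. All 20 libraries were fitted for the difference of the cold effects, on genes with a mean of at least 10 over them. A fold is the ratio of 2 group means. Fitted log2 differences include the pseudocount and so understate changes of low genes. The p-values were adjusted by Benjamini and Hochberg over all genes tested, with a threshold of 0.05. Shares of the total were compared by two-sided exact permutation tests (scipy 1.17.1). Alternatives were other scalings, pseudocounts and filters, sample weights, a replicate block, edgeR 4.0.16 and DESeq2 1.42.0 on the whole reads, and leaving out each library; applying them to the list counts was added after seeing the data. The fit was also run on simulated counts that had the same relative spread beyond counting error for every gene and no outlying library. That run does not show how the fit handles a library that stands apart.

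Named genes are the 14 largest rises and falls past the threshold with and without library 2 at 6 °C, with groups apart and a group mean of at least 50; the 6 largest differences each way; up to 4 members per list; and a set always given (Dpp4, Pdgfra, Pdgfrb, Ucp1, Il33, Ccl2, Adrb1, Adrb3, Pparg, Dio2, Icam1, F3, Col4a1). Predicted genes were passed over, and a few genes chosen this way are left out of the text. Col1a1, Col1a2, Manf, Calr, Hspa5, Slc3a2, Pycr1, Angptl2, Plin1, Fabp4, Fasn, Dcn, Pmp22, Nr3c1, Per1, Zbtb16 and the full list of called members of a gene list were named after their values were seen. The libraries and gene lists were chosen with earlier results of these data known.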

Additional observations from a re-analysis of the deposited data

Results flagged for a closer look

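In groups of 5 libraries, 22 of 302 sets of values tested had 1 library far from the others by Dixon's criterion (critical ratio 0.71), and chance flags about 1 in 20. Library 1 at 22 °C was the highest for Avpr1a (526.6 normalized reads), C7 (57820), Dpp4 (105.3), Iqgap2 (337.6), Ltbp1 (9359) and Sfrp2 (13350), and the lowest for Fgf10 (467.2), Psph (41.86) and Trarg1 (58.07). Library 3 at 22 °C was the lowest for Col1a2 (356400) and the highest for Klf12 (233), library 4 at 22 °C the highest for Lrrn4 (15.35), and library 5 at 22 °C the highest for Ccl2 (12610), Hspa5 (26750) and Hyou1 (1427). In the cold, library 1 was the highest for Dpp4 (136.7) and the lowest for Pcolce (16560), and library 4 the highest for Klf12 (146.8). Library 2 at 6 °C was the highest for the summed macrophage and dendritic cell (1156), lymphocyte (830.3) and granulocyte and mast cell markers (2894), and library 3 for pericyte and smooth muscle markers (43990).

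The 12 genes named for differing cold effects in DPP4- and DPP4+ cells were chosen among those past the limma test of the difference. That all 12 passed was therefore set by the choice, and 4329 of all 13057 genes did so (33.2%). The differences on the log2 scale were 5.32 for Wdr86, 4.22 for Lgals12, 2.74 for Avpr1a, 2.55 for Ppargc1b, 2.52 for Arxes2 and 2.47 for Pth1r. They were -3.45 for Iqgap2, -3.37 for both Adamtsl2 and Shisa6, -2.31 for Vcan, -2.08 for Akap2 and -1.98 for Arfgef3.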

How the results depend on the processing

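Of 116 named genes past the threshold, 68 stayed past it without each of the 10 libraries in turn and 69 under all other settings, and all but Col1a2 kept their sign. The number of genes higher in the cold was 403 with totals set equal, 155 with sample weights, 259 with a spread shared over 20 libraries and 197 by DESeq2, and it was 63 to 118 with 1 library left out. The number lower was 141 with totals set equal and 148 to 301 with 1 library left out. By edgeR 115 were higher and 271 lower. For the difference of the effects, 1128 genes lay below 0 with totals set equal. In the last setting the median of all genes moves up, and leaving a library out removes a sample. The cause of the other shifts was not tested.

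The replicate numbers were treated as not pairing the DPP4- libraries, since the labels name no pairs. The correlations of same-numbered libraries' deviations from their group means were 0.225, -0.0955, 0.0361, 0.164 and -0.25. Libraries of different numbers gave -0.2 to 0.217, and such values cannot show that no pairs exist. Pairing of DPP4- with DPP4+ libraries was not tested. A replicate block gave 115 higher and 266 lower genes, and 2139 and 2188 for the difference.

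These log2 differences changed sign, all but that of Col1a2 being of genes not past the threshold. With quantile normalization Ccl2 was 0.032, Col4a1 0.050, Dcn 0.048, Pdgfrb 0.049 and Col1a2, of the same rank in all libraries, 0. With totals set equal Ccl2 was 0.027 and Pdgfrb 0.091. Pdgfrb was 0.0065 with recomputed TMM factors, 0.012 by edgeR and 0.0034 by DESeq2. With 1 library left out, Ccl2 ranged from -0.18 to 0.0050, Dio2 from -0.16 to 0.43, F3 from -0.0086 to 0.12, Fasn from -0.074 to 0.17, Il33 from -0.052 to 0.23 and Pdgfrb from -0.066 to 0.055. At 8487790 to 18753821 reads a library, genes such as Ucp1 rest on few reads, and the smallest exact p of 5 against 5 libraries is 0.00794.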

Other observations

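Changes were also found outside the groups described above. Serpina3c, a serine protease inhibitor of adipose stroma, read 728, 697, 637, 590 and 601 at 22 °C and 398, 450, 394, 456 and 499 at 6 °C, with no overlap (1.48-fold lower, limma adjusted p = 0.00142; 0.00282 without library 2 at 6 °C). Cryab, a small heat shock protein, fell 1.46-fold (limma adjusted p = 0.00558). Of the 18 cold and heat shock genes tested it was the 1 fall, and 1 rose (0 without library 2 at 6 °C). In that list 16 were above 0, with a median log2 difference of 0.16, and with totals set equal 4 rose. Jag1, a Notch ligand, fell 1.26-fold (0.0108), and Pdgfd, a PDGF receptor ligand, 1.38-fold (0.0177, lost without library 5 at 22 °C, 0.0588). The matrix metalloprotease gene Mmp27 rose by 0.49 on the log2 scale (0.0123). It was the 1 rise among 25 matrix proteases and inhibitors tested, of which 1 fell and 19 were below 0 (median log2 difference -0.09). Of 3 mesothelial markers tested 1 rose, Lrrn4, and 2, Krt19 and Cldn15, did not pass (median log2 difference 0.06). Others, among them Msln, Upk3b and Wt1, stayed under the level for testing. The 11 markers together summed to 347 to 521 at 22 °C and 402 to 735 at 6 °C.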
